A study of Mus musculus with 81 samples.

Results

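An inner cysteine is a cysteine inside the CDR3 of the TCRβ chain beyond the conserved cysteine that opens it. Members were the in-frame rearrangements whose CDR3 held a cysteine at position 3 or later, counted from the opening residue as position 1. They were sought in all 81 libraries after removal of the CDR3s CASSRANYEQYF, carried by the transferred OT-1 cells, and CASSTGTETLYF, carried by the lymphoma cell line. They numbered 22272 of 377937 in-frame entries, each entry being 1 rearrangement in 1 library. These were 20671 different rearrangements with 17152 different CDR3s, of which 28 entries held 2 inner cysteines and none belonged to the removed CDR3s. In 85 member entries the CDR3 did not open with C.

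CDR3s were sequenced from genomic DNA of blood and tumor of Pep Boy mice (CD45.1 on the B6 background) that bore or were challenged with EG7.OVA, an OVA-expressing line derived from the T-cell lymphoma EL4. In the treatment experiment all mice received naïve OT-1 cells, CD8+ T cells with a transgenic receptor for OVA, followed by mouse red blood cells (mRBC). One arm was dosed with mRBC-CTRL (1E9 cells), and the other arms with a 1E9 or a 2.5E8 dose of mRBC-OVA-4-1BBL-IL-12, which carry on their surface the molecules in their name. Day 0 blood was drawn once OT-1 cells had been given but ahead of dosing (5 mRBC-CTRL, 4 of the 1E9 dose and 5 of the 2.5E8 dose), and day 7 blood together with the tumors (4, 5 and 5 bloods, 5 tumors each). The rechallenge experiment followed 7 mice whose tumors had been cured by OT-1 cells and the 2.5E8 dose. Their blood was taken on day 65, on day 73 after rechallenge with EG7.OVA, and later before and after a challenge with EL4. Naive mice (5), which had no earlier tumor or dosing, were given 500000 OT-1 cells, fewer than the other mice had received. They then had the same EG7.OVA challenge, with blood taken on days 65 and 73. Mice are the replicates, and every mouse carries transferred cells of a single receptor. Libraries held from 2355 to 77041 in-frame templates, and from 482 to 23605 templates of 285 to 17569 rearrangements once the CDR3s of the OT-1 cells and of the lymphoma were removed.

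The CDR3 of the β chain is the loop that faces the peptide held by the MHC molecule. It is assembled in the thymus from a V, a D and a J segment, with bases trimmed from their ends and untemplated N bases added between them, so a codon can come from a segment or from the join. Receptors reach the repertoire of mature T cells only after selection in the thymus, where those that bind self too strongly are deleted or diverted to other lineages. A cysteine near the middle of the loop is known as a feature of such strongly self-reactive receptors. A rearrangement that is out of frame makes no chain and is not itself selected, and shows what the joining process makes. Genomic DNA carries both kinds.

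The rearrangements shown here, 5′ to 3′ as deposited, carry the difference between inner cysteines that the V segment encodes and those made at the join. The codon of the inner cysteine is in capitals, and so is, in the last pair, a stop codon of the V segment that lies before the CDR3. The first 4 use TCRBV01-01 and share its codon at position 3, although their joins differ. The fifth uses TCRBV31-01, the sixth TCRBV12-02 and the last pair TCRBV24-01, and their cysteine codon lies across the end of the V segment or beyond it.
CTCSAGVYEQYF: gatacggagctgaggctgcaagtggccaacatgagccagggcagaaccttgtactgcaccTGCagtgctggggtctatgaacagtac
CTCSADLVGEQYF: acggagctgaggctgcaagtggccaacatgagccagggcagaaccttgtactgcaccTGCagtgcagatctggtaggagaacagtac
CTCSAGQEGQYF: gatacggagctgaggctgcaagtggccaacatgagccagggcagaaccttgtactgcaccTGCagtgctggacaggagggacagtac
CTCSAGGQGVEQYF: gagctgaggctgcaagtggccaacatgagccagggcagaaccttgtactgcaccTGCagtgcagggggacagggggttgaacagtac
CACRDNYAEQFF: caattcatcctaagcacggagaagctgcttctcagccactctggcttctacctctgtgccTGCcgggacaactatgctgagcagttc
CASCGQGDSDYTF: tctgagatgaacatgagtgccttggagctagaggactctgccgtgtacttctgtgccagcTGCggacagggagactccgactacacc
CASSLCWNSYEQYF: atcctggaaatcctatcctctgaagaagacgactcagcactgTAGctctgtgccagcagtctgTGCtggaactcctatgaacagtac
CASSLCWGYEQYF: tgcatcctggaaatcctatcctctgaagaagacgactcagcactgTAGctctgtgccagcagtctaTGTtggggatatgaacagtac

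Most inner cysteines were not made by the join. In 95.46% of members (21260 entries) the codon lay wholly within the V segment, and 21101 of these were TCRBV01-01 with its cysteine at position 3. The codon there was TGC in 21096 entries and TGT in 5. Of 21242 in-frame entries with TCRBV01-01, 99.42% were members, so for this segment the trait is close to a property of the segment itself. TCRBV22-01 gave another 120 of its 400 in-frame entries, at position 5, and other segments gave 39. Within 2 positions of the middle of the loop, where the trait tied to self-reactivity lies, the V-encoded cysteine stood in 42 entries. The V-encoded and the other inner cysteines are therefore described apart.

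The remainder, termed non-V cysteines, comprised 1012 entries, 1008 rearrangements and 1273 templates. Of the entries, 993 had a codon made at the join and 19 a codon wholly inside the J segment, all of them TCRBJ01-07. N bases stood in the codon of 94.17%, J bases in 40.42%, V bases in 29.74% and D bases in 15.81%, and 20.95% of the codons consisted of N bases alone. TGT (516) and TGC (496) were used about equally. The cysteine was most often at position 3 (16.6%), 6 (14.72%) or 8 (12.06%), and lay within 2 positions of the middle of the CDR3 in 584 entries (57.71%). Entries at position 3 were mostly of TCRBV31-01, with 134 of the 168. The V segment supplied the bases TG of the codon in 133 entries of TCRBV31-01, a segment whose in-frame entries encode tryptophan at that position in 96.85% of cases.

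**Figure D1:**
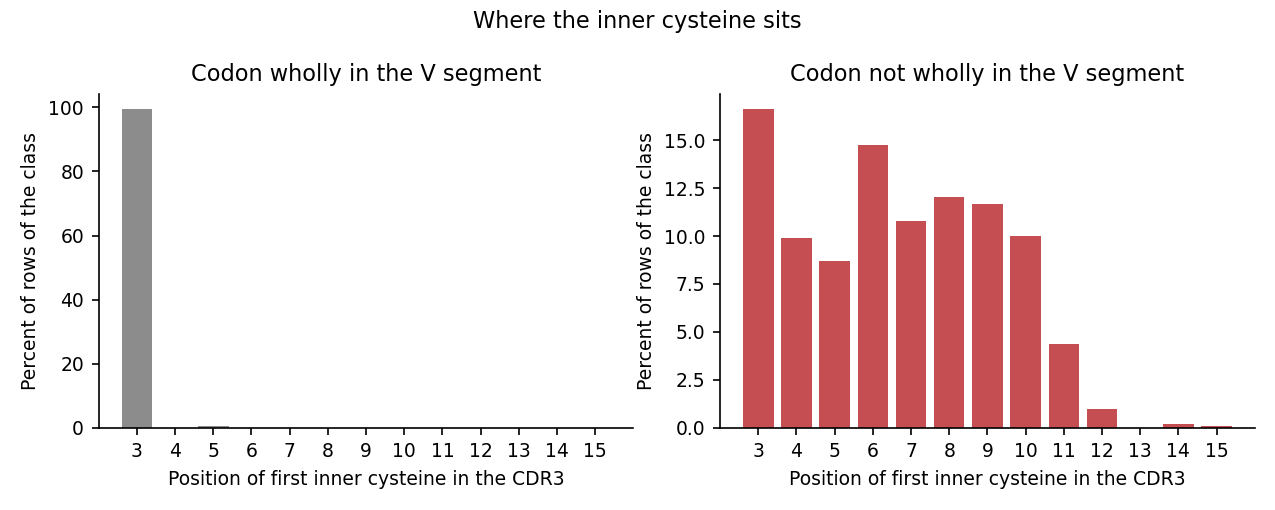
Position of the first inner cysteine in the CDR3 (x axis, opening residue is position 1) in percent of entries of each class (y axis), over all 81 libraries. V-encoded cysteines (left, 21260 entries) stand at position 3 in 99.37% of entries, and non-V cysteines (right, 1012 entries) spread over positions 3 to 15.

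Cysteine was the residue with the lowest share in in-frame joins relative to out-of-frame joins. Residues encoded by whole codons between the V and J segments were compared between in-frame and out-of-frame rearrangements of the blood. They were read in the reading frame that runs on from the V segment. The share of rearrangements with such a cysteine was 0.07747% ± 0.03469 in frame and 0.7072% ± 0.1613 out of frame (mean ± SD, n = 27 mice), a ratio of 0.1095. The share was lower in frame in 27 of 27 mice (permutation p = 1e-05, the smallest that 100000 resamples can give, adjusted p = 1.25e-05 over 20 residues). The difference was called for 95% of the 20 residues, 16 lower and 3 higher in frame, and not for asparagine (adjusted permutation p = 0.2296). These shares count rearrangements and so depend on the number of codons between V and J, which was not held equal between frames. Counted per codon, cysteine made up 0.02997% in frame and 0.2363% out of frame, lower in 27 of 27 mice. The other residues were not tested per codon. As a description of size, the next lowest ratio was that of lysine at 0.6266, and the highest, that of serine, was 1.123. Joins that encode a stop codon had been left out on both sides. With those kept the cysteine difference was -0.6373 percentage points, against -0.6297.

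**Figure D2:**
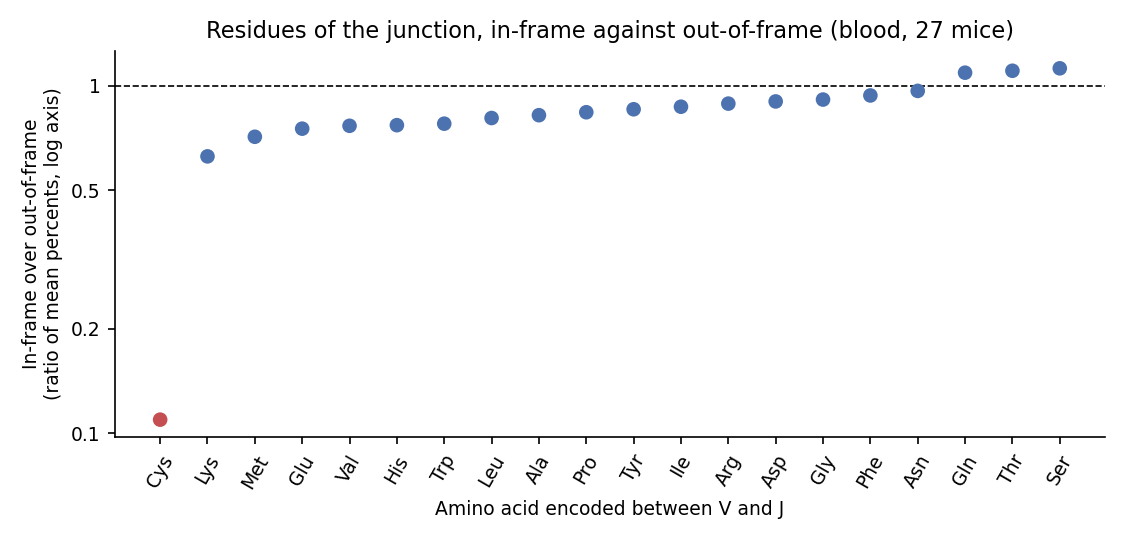
Ratio of the mean share of in-frame to that of out-of-frame blood rearrangements with each residue encoded between V and J (y axis, log scale) for the 20 amino acids (x axis), over 27 mice. Cysteine lies at 0.1095 and the other 19 residues between 0.6266 and 1.123.

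In tumors 67 of 28317 in-frame rearrangements (0.2366%, 95% Wilson interval 0.1864 to 0.3003) and 167 of 15955 out-of-frame rearrangements (1.047%, 0.9001 to 1.217) encoded a cysteine in the same stretch. The in-frame share was lower in 15 of 15 tumors (permutation p = 5e-05). Intervals here and elsewhere cover counting error only.

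TCRBV24-01 held the most non-V cysteines after TCRBV31-01. In 99.83% of its 4576 in-frame entries a stop codon in frame with the CDR3 lay before it, shown in capitals in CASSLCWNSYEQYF and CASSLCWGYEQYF, so that a chain read from these rearrangements would end before the CDR3 although they are recorded as in frame. Non-V cysteines were found in 2.972% of the entries of this segment (95% Wilson interval 2.518 to 3.505). Over all segments the share was 2.846% of 5130 in-frame entries with such a stop and 0.2323% of 372807 without one, but 4568 of the 5130 belong to TCRBV24-01. Outside it the share was 1.779%, 10 of 562 entries with the stop. Some segments had higher or similar shares with the stop in few or only some of their entries. The stop was sought only in the sequenced bases before the CDR3, so other defects of a segment would be missed. Whether the segments named next can make a chain was not tested, and their shares cannot tell whether high shares occur in segments that do. TCRBV22-01 held non-V cysteines in 5.75% of 400 entries and the stop in 0.25%. Of its 23 non-V entries, 14 stood at position 5, where the segment itself encodes a cysteine, and 14 had V bases in the codon. Its share is therefore not one of cysteines made by the join alone. TCRBV21-01 held non-V cysteines in 2.075% of 723 with the stop in 0.2766%, and TCRBV27-01 in 19.12% of 68 with the stop in 38.24%. TCRBV24-01 made up 1.211% of in-frame and 5.048% of out-of-frame entries.

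The comparison between frames was also made within TCRBV24-01. In TCRBV24-01 in blood a cysteine between V and J was encoded in 38 of 4171 in-frame (0.9111%) and 57 of 8893 out-of-frame rearrangements (0.641%). The mean difference was 0.1152 percentage points (SD 1.43, n = 27 mice, permutation p = 0.6839), higher in 11 mice and lower in 12. Among rearrangements without a stop before the CDR3 the shares were 0.06551% of 344983 in frame and 0.6848% of 166607 out of frame, lower in frame in 27 of 27 mice. The change between frames was 0.7392 percentage points more positive in TCRBV24-01 than in those (SD 1.44, permutation p = 0.01047), in 19 of 27 mice. Few TCRBV24-01 rearrangements fell to each mouse, and the stop and the segment cannot be told apart here.

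**Figure D3:**
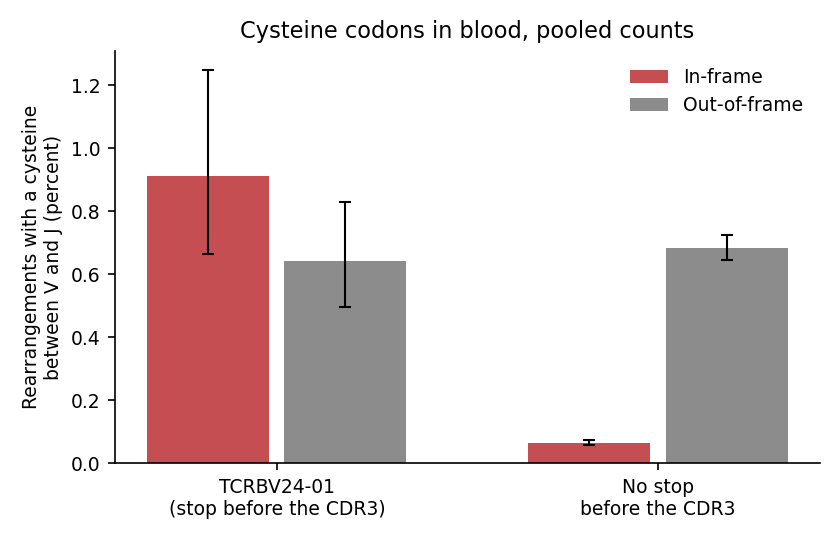
Percent of blood rearrangements with a cysteine encoded between V and J (y axis), in frame (red) and out of frame (grey), for TCRBV24-01 and for rearrangements without a stop codon before the CDR3 (x axis). Bars are pooled counts over 27 mice with 95% Wilson intervals, and the in-frame bar is low (0.06551%) only in the group without the stop.

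V segments were used unequally by non-V cysteines. Use differed from that of in-frame rearrangements without an inner cysteine for 19 of 36 segments (52.8%, permutation tests over 27 mice, adjusted p under 0.05), 6 higher and 13 lower. Of these calls, 3 say nothing about non-V cysteines. TCRBV01-01 encodes an inner cysteine itself, so that the rearrangements without one had lost nearly all of its entries, and 18 of its 21242 in-frame entries (0.0847%) were non-V against 0.268% over all segments. Entries with no resolved segment (0.00803% of the others) and TCRBV09-01 (0.00288%) were too rare to be found among non-V cysteines. TCRBV31-01 took 16.97% of non-V cysteines against 6.18% of the others (adjusted permutation p = 0.00018, higher in 23 mice), and TCRBV24-01 15.3% against 1.27% (adjusted permutation p = 0.00018, higher in 24 mice). TCRBV22-01 (2.47% against 0.0753%) and TCRBV27-01 (2.17% against 0.0150%) were also higher in the mean, but in 12 and 10 mice only. TCRBV22-01 also encodes a cysteine itself, so the others lacked its 120 V-encoded entries. Of its 23 non-V entries, 14 stood at the position of that cysteine, so its call is not one of join-made cysteines alone. Of the segments used less, TCRBV05-01 took 1.77% against 6.79% and TCRBV02-01 1.88% against 6.23%. TCRBV29-01 took 1.13% against 3.64%, TCRBV16-01 2.44% against 5.89% and TCRBV03-01 5.09% against 8.31%. V bases stood in the codon of 133 of 159 entries of TCRBV31-01, of 39 of TCRBV24-01 and of 0 of 69 of TCRBV13-02, the next most frequent.

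Of 15 J segments 13.3% were called. TCRBJ01-07 made up 2.55% of non-V cysteines and 0% of the others, which follows from the cysteine it encodes. The other call, TCRBJ02-06, made up 0% against 0.00857% and was too rare to be found among non-V cysteines. Neither call describes a preference of the members. TCRBJ02-04 was used in 12.7% against 8.28%, in 20 of 27 mice, with an adjusted p of 0.05737.

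Rearrangements with a non-V cysteine had as long a CDR3 as others within the error, but more N bases. Their CDR3 measured 13.8 ± 0.496 residues in blood against 13.9 ± 0.0210 (difference -0.06441, SD 0.4946, n = 27 mice, permutation p = 0.5113). They held 5.75 ± 1.36 N bases against 3.43 ± 0.0481 (difference 2.32, permutation p = 1e-05, higher in 27 of 27 mice), a trait tied to the definition, since these codons mostly need N bases.

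They were also small clones. In blood 21.1% ± 11.1 of non-V cysteine rearrangements and 29.2% ± 4.48 of those without an inner cysteine had 2 or more templates (difference -8.11 percentage points, permutation p = 0.00109, lower in 22 of 27 mice). In tumors the shares were 23.99% ± 14.94 and 36.6% ± 2.87 (permutation p = 0.00681, lower in 11 of 15). The largest non-V clone had 6 templates in blood and 8 in a tumor. For members as a whole, which are mostly V-encoded, the share in blood was 29.0%, with no difference beyond the error (-0.192, permutation p = 0.8048). At a cutoff of 5 or more templates the share was lower, 0.201% against 0.482% (permutation p = 2e-05, lower in 24 of 27 mice). Pooled counts of blood did not show fewer members among larger clones. Members made up 5.904% of rearrangements with 1 template, 5.725% with 2, 6.412% with 3 and 7.601% with 4 or more.

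The share of all inner cysteines passed no adjusted test between tissues, arms or days. In blood it was 5.90% ± 0.433 of in-frame rearrangements (66 libraries, 4.64 to 7.43), and in tumors 5.77% ± 0.648 (15 libraries, 4.82 to 7.11). None of 12 comparisons between arms, tissues and days had an adjusted p under 0.05 by exact permutation or sign-flip tests, and none had an unadjusted p under 0.05 (lowest 0.0625). In tumors the mean was 5.87% ± 0.445 with mRBC-CTRL, 6.15% ± 0.750 at the 1E9 dose and 5.30% ± 0.480 at the 2.5E8 dose (n = 5 each, unadjusted exact permutation p = 0.4841 and 0.0873 against mRBC-CTRL). Within mice of the 2.5E8 dose the tumor share was below that of day 7 blood in 5 of 5, with a mean change of -0.7751 percentage points against -0.0234 with mRBC-CTRL (n = 4), and these changes differed (unadjusted exact permutation p = 0.007937, among 10 tests of this kind). In naive mice it was lower on day 73 than on day 65 in 5 of 5, by 0.387 percentage points, but 5 pairs cannot give an exact p below 0.0625. In cured mice the mean stayed between 5.76% and 5.99% over the 4 days.

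Counted in templates, inner cysteines made up less of tumors. The share was 3.32% ± 2.91 in tumors and 5.24% ± 0.717 in day 7 blood of the same mice, lower in 13 of 14 mice (exact sign-flip p = 0.02649, adjusted p = 0.1589 over 12 comparisons). The exception was the mouse 2 tumor at the 1E9 dose, where the share was 12.86% and a single TCRBV01-01 clone, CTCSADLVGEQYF, held 65 templates or 7.81% of the library. From day 0 to day 7 in blood the template share was 0.813 percentage points lower, in 11 of 13 mice (exact sign-flip p = 0.005127, adjusted p = 0.06152). Neither passed the adjusted threshold.

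Non-V cysteines differed between tissues and arms when rearrangements were counted. In day 7 blood the libraries of mRBC-CTRL held 0.1950, 0.2274, 0.1933 and 0.2016%, those of the 2.5E8 dose 0.3568, 0.2547, 0.3743, 0.3027 and 0.3834%, and those of the 1E9 dose 0.2771, 0.5225, 0.4305, 0.4211 and 0.7018% of in-frame rearrangements. Every library of both doses lay above every mRBC-CTRL library. The means were 0.204% ± 0.0158 for mRBC-CTRL (n = 4), 0.334% ± 0.0544 for the 2.5E8 dose (n = 5) and 0.471% ± 0.156 for the 1E9 dose (n = 5), with an exact permutation p of 0.01587 and an adjusted p of 0.04762 for each dose against mRBC-CTRL. These shares rest on few entries, between 7 and 15 in an mRBC-CTRL library and between 2 and 15 in a library of either dose. The value of 0.7018% came from the smallest library, with 2 such entries of 285. Other traits of the day 7 blood libraries had different means, but were not tested between the arms. CDR3s that did not open with a cysteine made up 0.1985% ± 0.0748 with mRBC-CTRL, 0.501% ± 0.272 at the 2.5E8 dose and 0.4023% ± 0.252 at the 1E9 dose. Out-of-frame entries made up 34.83 ± 1.19, 36.46 ± 1.35 and 35.72 ± 3.23% in the same order. The mean number of added bases was 3.399 ± 0.039, 3.452 ± 0.0917 and 3.499 ± 0.130. Among CDR3s that open with a cysteine the differences from mRBC-CTRL were 0.0930 points for the 2.5E8 dose and 0.2004 points for the 1E9 dose (unadjusted exact permutation p = 0.02381 for each). The part of the other traits in the result was not tested.

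The 2.5E8 dose differed from mRBC-CTRL in each of 9 analyses that left out 1 mouse, whereas the 1E9 dose lost the call without any 1 of the mRBC-CTRL mice 2 to 5 (exact permutation p = 0.05357). With template shares the exact permutation p was 0.07937 for the 1E9 and 0.1905 for the 2.5E8 dose, and with all libraries thinned to 482 templates it was 0.06349 and 0.0873. In a test of each of the 20 residues at the join, here with codons that also hold V or J bases, 0% were called for the 1E9 and 0% for the 2.5E8 dose (exact permutation tests, with 3 and 2 residues at an unadjusted p under 0.05). Cysteine had an unadjusted exact permutation p of 0.01587 and 0.007937, and an adjusted one of 0.3175 and 0.1587.

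Within mice the share rose from day 0 to day 7 in blood. On day 0 it was 0.2615, 0.2430, 0.2069, 0.1501 and 0.1065% in mRBC-CTRL mice, 0.3441, 0.0904, 0.2092, 0 and 0.2144% in mice later given the 2.5E8 dose and 0.1904, 0.1851, 0.2845 and 0.1815% in mice later given the 1E9 dose. The day 0 ranges of the arms overlapped. Over the 13 mice with both samplings the share was 0.185% ± 0.0871 on day 0 and 0.351% ± 0.148 on day 7, higher in 12 of 13 (difference 0.166, SD 0.155, exact sign-flip p = 0.001465, adjusted p = 0.01538). The mean change was 0.309 percentage points at the 1E9 dose (4 of 4 mice higher), 0.163 at the 2.5E8 dose (5 of 5) and 0.0277 with mRBC-CTRL (3 of 4). The change at the 1E9 dose exceeded that with mRBC-CTRL by 0.281 points (exact permutation p = 0.02857), and at the 2.5E8 dose by 0.135 (exact permutation p = 0.06349). The rise was seen in template shares too (0.0935 points, adjusted exact sign-flip p = 0.01758), but not past the threshold among rearrangements with 2 or more templates (0.0662 points, p = 0.1936). In the test of each residue, 0% were called for day 7 against day 0, with 2 residues at an unadjusted p under 0.05 by exact sign-flip tests. Cysteine had an unadjusted exact p of 0.003418 and an adjusted one of 0.06348.

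**Figure D4:**
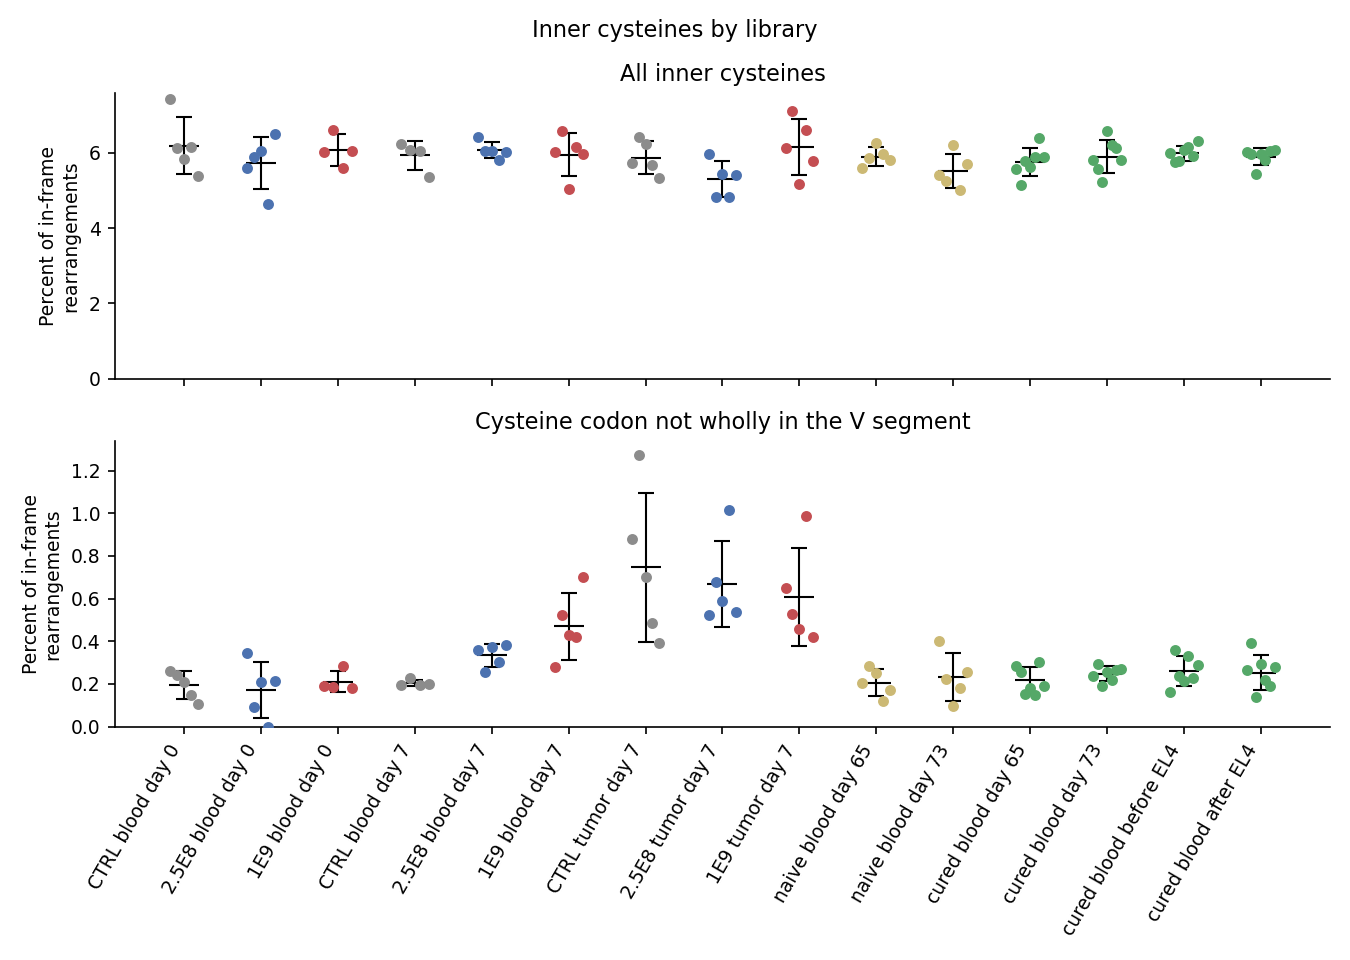
Share of all inner cysteines (top) and of non-V cysteines (bottom) in percent of in-frame rearrangements (y axes) by group (x axis). Points are libraries, and lines show the mean and SD. All inner cysteines lie between 4.64 and 7.43% in blood, and non-V cysteines reach a mean of 0.674% in tumors against 0.251% in blood.

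Tumors held more non-V cysteines than blood. The tumors held 0.8813, 1.273, 0.7015, 0.4872 and 0.3939% with mRBC-CTRL, 0.5244, 0.6770, 0.5877, 1.015 and 0.5368% at the 2.5E8 dose and 0.6510, 0.5263, 0.4552, 0.9862 and 0.4197% at the 1E9 dose. The arms overlapped, with exact permutation p = 0.6905 for the 2.5E8 and 0.4921 for the 1E9 dose against mRBC-CTRL. Within mice the share was 0.660% ± 0.258 in the tumor and 0.346% ± 0.144 in day 7 blood, higher in 13 of 14 mice (difference 0.314, SD 0.334, exact sign-flip p = 0.002563, adjusted p = 0.01538). By arm the mean difference was 0.510 points with mRBC-CTRL (4 of 4 mice higher), 0.334 at the 2.5E8 dose (5 of 5) and 0.137 at the 1E9 dose (4 of 5). The differences between arms in this contrast did not pass a test (exact permutation p = 0.4603 and 0.1667). Other traits of the 15 tumor and all 66 blood libraries had different means as well, but were not tested between tissues. CDR3s that did not open with a cysteine made up 0.6882% ± 0.481 in tumors and 0.3206% ± 0.142 in blood. Out-of-frame entries made up 38.22 ± 3.20 and 34.24 ± 1.75%, and the mean number of added bases was 3.616 ± 0.0841 and 3.428 ± 0.0633. The part of these traits in the tumor result was not tested.

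The tumor difference was also taken by clone size and by V segment, without a test between sizes or between segments. Pooled over tumors, non-V cysteines made up 0.822% of rearrangements with 1 template, 0.497% of those with 2, 0.442% of those with 3 and 0.215% of those with 4 or more. In blood the same 4 classes held 0.257, 0.171, 0.177 and 0.176%. Among rearrangements with 2 or more templates the difference within mice was 0.244 points (exact sign-flip p = 0.01624). Counted in templates the tumor share was not higher (0.202% against 0.259%, exact sign-flip p = 0.1195), and thinning all libraries to 482 templates left a difference of 0.118 points (p = 0.1493). For segments other than those 2, tumors held 0.582% and blood 0.270% (adjusted exact sign-flip p = 0.01099 over 6 tests, 13 of 14 mice). For TCRBV31-01 the shares were 0.0387 and 0.0483%, and for TCRBV24-01 0.0390 and 0.0275% (adjusted exact p = 0.7266 for both), from only 15 and 9 tumor entries.

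**Figure D5:**
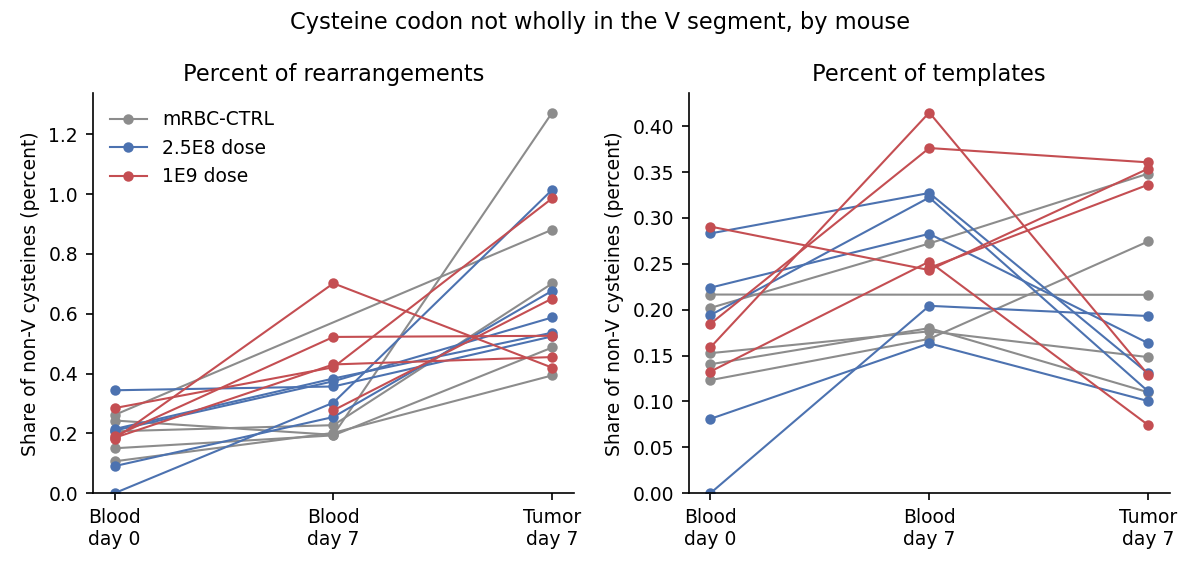
Share of non-V cysteines in each mouse of the treatment experiment in blood on day 0 and day 7 and in the tumor on day 7 (x axis), in percent of in-frame rearrangements (left) and of templates (right). Lines join samplings of a mouse, and colors mark the arm. The tumor lies above day 7 blood in 13 of 14 mice on the left and in 4 of 14 on the right.

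Within the loop, 72.77% of the 191 non-V entries of tumors lay within 2 positions of the middle, against 54.2% of 821 in blood. TCRBV31-01 was used in 7.85% against 17.5%. These shares pool entries over all arms and over all 66 blood libraries of both experiments, and were not tested. An mRBC-CTRL tumor held 24 non-V entries in the mean, against 9.4 at the 2.5E8 and 4.8 at the 1E9 dose. Non-V cysteines made up 0.747, 0.668 and 0.608% of tumor rearrangements in that order. Inner cysteines near the middle, V-encoded included, made up 0.622, 0.422 and 0.390%. The same test of each residue at the join called 50% of the 20 residues between tumor and day 7 blood, 7 higher and 3 lower. Counted per residue of the join, 6 of 20 were called, 3 higher and 3 lower. Cysteine had the highest ratio, with 0.714% of rearrangements in tumors and 0.348% in blood (ratio 2.05, adjusted exact sign-flip p = 0.006348, 12 of 14 mice). Tryptophan (ratio 1.39) and histidine (1.24) followed, and lysine (0.821), glutamic acid (0.890) and serine (0.939) were lower. The join was longer in tumors (4.09 against 3.98 residues, 13 of 14 mice), and per residue of it the cysteine ratio was 1.99. Out-of-frame rearrangements with a cysteine encoded between V and J were also more frequent in tumors, at 1.047% against 0.6986% in blood pooled over libraries. Their part in the in-frame result was not tested. A tumor library holds T cells of the tumor and cells of the lymphoma itself, and no cell sorting is described for it, so cell types cannot be told apart.

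In cured and naive mice the mean share of non-V cysteines was between 0.207% and 0.260% in every group. In cured mice the lowest, median and highest library held 0.149, 0.191 and 0.302% on day 65, 0.191, 0.255 and 0.293% on day 73, 0.162, 0.235 and 0.360% before EL4 and 0.137, 0.266 and 0.394% after EL4. In naive mice they held 0.121, 0.206 and 0.282% on day 65 and 0.0968, 0.225 and 0.403% on day 73. All groups overlapped, and the adjusted p of the 6 comparisons lay between 0.45 and 0.7969 (exact permutation and sign-flip tests).

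Single member clones were compared between libraries of a mouse by Fisher's exact test, for rearrangements with at least 5 templates in both together, which gives the difference between a pair of samples and not its spread over blood draws. Between tumor and day 7 blood 25 of 124 tested members were higher in the tumor, against 30.5% of all clones tested, and 4 were lower, against 3.55%. Between day 7 and day 0 blood 3 of 17 were higher, against 54.7%, and 0 lower, against 2.71%. In cured mice 1 of 7 was higher on day 73 than on day 65, against 26.4%, and 0 lower, against 1.04%. Before EL4 against day 73, 2 of 12 were higher, against 4.88%, and 1 lower, against 19.1%. After EL4 against before it, 1 of 18 was higher, against 8.36%, and 3 were lower, against 14.9%. In naive mice the 1 tested member was neither higher nor lower, against 15.7% and 21.6%. Of the 40 calls, 39 were V-encoded. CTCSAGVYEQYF, shown above with a single N base, was the rearrangement called in 2 mice. It held 96 templates in the mRBC-CTRL mouse 3 tumor (0.407%) and 46 in the mouse 1 tumor at the 2.5E8 dose (0.334%), and 0 in the day 7 blood of either mouse.

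Other large clones were also of TCRBV01-01. The tumor clone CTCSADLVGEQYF of mouse 2 at the 1E9 dose held 65 templates in the tumor and 2 in day 7 blood (adjusted Fisher's exact p = 3.134e-27). The other members with the highest tumor shares had CDR3s of 15 residues, with 108 templates (0.914%) in the mRBC-CTRL mouse 5 tumor and 102 (0.740%) in the mouse 1 tumor at the 2.5E8 dose. In blood the highest shares were 0.656% (39 templates, mouse 3 at the 1E9 dose, day 7), 0.415% (2 templates in the smallest library) and 0.409% (15 templates, mouse 1 at the 2.5E8 dose, day 7). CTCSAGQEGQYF followed among cured mice, with 26 templates before EL4 (0.237%) and 7 after it in mouse 7, and none on days 65 and 73.

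Non-V clones stayed small. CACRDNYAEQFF, the TCRBV31-01 clone shown above, was the only non-V member found in both tumor and blood of a mouse, with 6 templates in day 7 blood and 4 in the tumor of mRBC-CTRL mouse 2. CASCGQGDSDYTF held 4 templates before EL4 in cured mouse 2. The TCRBV24-01 rearrangement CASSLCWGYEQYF held 4 templates on day 73 and 2 before EL4 in cured mouse 4, and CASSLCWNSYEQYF held 6 in the mRBC-CTRL mouse 4 tumor.

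Over the long course of the cured mice, 0.848% ± 0.272 of the members on day 65 were found again before the EL4 challenge, against 0.915% ± 0.268 of other rearrangements (n = 7 mice, exact sign-flip p = 0.7031). Among non-V members 0 of 103 were found again, which allows a share of up to 2.91% and so does not tell them from the others. On all 4 days 4 of 11945 members were found (0.0335%), against 0.0525% of other rearrangements. All were TCRBV01-01. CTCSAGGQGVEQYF held 12, 3, 5 and 2 templates and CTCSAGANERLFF, made without N bases, 1, 2, 3 and 4, on day 65, on day 73, before EL4 and after EL4 in cured mouse 4. The other two had CDR3s of 15 and 16 residues and were highest after EL4, with 13 and 7 templates in cured mice 2 and 5.

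Inner cysteine CDR3s were less often shared. Of the member CDR3s in the blood of a mouse 29.3% ± 2.19 were found in another mouse, against 44.8% ± 2.51 of other CDR3s, lower in 27 of 27 mice (difference -15.5 points, permutation p = 1e-05). A CDR3 shared between mice counts in each of them, so the 27 values are not independent. The p therefore does not measure a spread over independent mice. Non-V CDR3s were shared in 1.78% ± 2.66 (difference -43.0 points, 27 of 27 mice). Non-V rearrangements in blood held 5.75 N bases against 3.43 in those without an inner cysteine, a trait tied to the definition. Nearly all V-encoded members used a single segment, TCRBV01-01. The part of N bases and of V use in the sharing was not tested. The most shared were CDR3s of TCRBV01-01, found in 14 mice through 12 and 16 different rearrangements, in 13 mice through 14, and in 12 mice, among them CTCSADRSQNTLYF through 10. Of 966 non-V CDR3s 7 were found in 2 or more of the mice, and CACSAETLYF reached 3.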

How the data were processed

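DNA of blood and tumors was amplified in the immunoSEQ assay, and the authors deposited for each library a table of rearrangements with a template count per rearrangement, its V, D and J segments and its frame. In 81 of 81 libraries this count matched the tables' estimate of genomes, and it is not normalized. The error correction of the authors precedes these counts. The build and aligner are not given in the sources used here. The tables' own V, N, D and J bounds within the 87 bases of a rearrangement placed each cysteine codon.

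Shares were compared between groups by exact permutation and within mice by exact sign-flip tests, 2-sided, with Benjamini-Hochberg adjustment over 12 comparisons. Traits were tested over 27 mice by sign-flip permutation with 100000 resamples, and single clones by Fisher's exact test adjusted within mouse, on simulated data first. CDR3s named were those found in most mice, with the highest shares, called in 2 mice or present on 4 days, and non-V examples chosen after their values were seen. The class of non-V cysteines was added after the data were examined, and members and lists were chosen with earlier results of these data known. For 1 day 73 library the title and the animal code disagree, and the code (cured mouse 2) was followed. Alternatives were template shares, other definitions, thinning and leaving out mice. Python 3.11.15, numpy 2.4.6, pandas 2.3.3, scipy 1.17.1 and matplotlib 3.10.9 were used.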

Additional observations from a re-analysis of the deposited data

Results flagged for a closer look

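Of 60 checks for a library far from the rest of its group, 5 found one, and chance gives about 1 in 20. The share of rearrangements with a non-V cysteine was 0.2845% in day 0 blood of mouse 4 of the 1E9 dose, against 0.1815 to 0.1904% in the other mice. The template share of inner cysteines was 12.86% in the mouse 2 tumor at the 1E9 dose (others 1.263 to 3.382%), where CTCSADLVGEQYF alone held 7.812%, and 2.006% in the mRBC-CTRL mouse 1 tumor (others 2.978 to 3.169%). The template share of non-V cysteines was 0.2722% in day 7 blood of mRBC-CTRL mouse 2 (others 0.1682 to 0.1799%), the library with 6 templates of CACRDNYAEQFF. The share of rearrangements with an inner cysteine was 5.431% in cured mouse 3 after EL4 (others 5.806 to 6.06%).

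Of 10 tests of whether a change differed between arms, 2 gave an unadjusted exact permutation p under 0.05. The change of all inner cysteines from day 7 blood to tumor differed by -0.7517 percentage points between the 2.5E8 dose and mRBC-CTRL (-0.7751 against -0.0234, exact permutation p = 0.007937), with all 5 mice of that dose lower in the tumor. The change of non-V cysteines from day 0 to day 7 in blood was 0.2809 points larger at the 1E9 dose than with mRBC-CTRL (0.3086 against 0.02769, exact permutation p = 0.02857).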

How the results depend on the processing

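Values are differences in percentage points. Of 348 alternatives other than leaving out a mouse, 276 kept direction and side of the threshold, 46 reversed, 15 gained and 10 lost the call and 1 moved a count. Most reversals were of differences near 0 without a call, and the cause was not tested. Shallow libraries limit non-V cysteines, of which a blood library held few.

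Mouse numbers are shared between arms by different animals and did not pair them (r = -0.152 over 28 pairs of deviations of non-V shares). In a fit that took this number as a replicate block, the non-V difference in day 7 blood from mRBC-CTRL was 0.3146 for the 1E9 and 0.1244 for the 2.5E8 dose (exact p = 0.125 each, the smallest 4 pairs allow), and cured minus naive mice on day 65 became -0.002611. Dropping the pairing of samples within a mouse changed no call.

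For all inner cysteines without TCRBV01 the differences from mRBC-CTRL were 0.3103 (1E9) and 0.1754 (2.5E8) in day 7 blood and -0.03062 (1E9) in tumors. Tumor minus blood became 0.3556, day 7 minus day 0 0.1712, naive day 73 minus 65 0.02536 and cured minus naive on day 73 -0.01907. For cysteines within 2 positions of the middle these were 0.1661, 0.1397, -0.2326, 0.2465, 0.09219, 0.02329 and -0.02783. Cured day 73 minus 65 was then -0.01862 and cured minus naive on day 65 0.01408. The non-V values near the middle were -0.008657 (cured day 73 minus 65) and -0.01266 (cured minus naive on day 73), the first -0.008711 without stops before the CDR3.

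In templates all inner cysteines gave -0.8171 (1E9) and -0.4598 (2.5E8) in day 7 blood, -1.923 for tumor minus blood and -0.8132 for day 7 minus day 0. Non-V gave 0.1072 and 0.06071 in day 7 blood, 0.03134 in tumors at 1E9, -0.0568 for tumor minus blood, -0.001507 for naive day 73 minus 65 and -0.009808 for cured minus naive on day 65. With 2 or more templates all inner cysteines gave -0.3868 and -0.09061 in day 7 blood, 0.3114 for tumor minus blood, -0.7809 for day 7 minus day 0, -0.2294 for cured before EL4 minus day 73 and 1.373 (exact permutation p = 0.02146) for cured minus naive on day 73. Non-V gave 0.02793 and 0.1011 in day 7 blood, 0.08168 in tumors at 1E9, 0.06615 for day 7 minus day 0, -0.001549 for cured before EL4 minus day 73, -0.0631 for naive mice and -0.01472 for cured minus naive on day 65.

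Thinned to the smallest library, all inner cysteines gave -0.09601 for day 7 minus day 0, -0.1788 for cured before EL4 minus day 73 and 0.01137 for after minus before EL4. Non-V gave 0.1985 and 0.1011 in day 7 blood, 0.01027 in tumors at 1E9, 0.1175 for tumor minus blood, -0.06894 and 0.03153 for the later cured draws and -0.003959 for cured minus naive on day 65. The 1E9 value of all inner cysteines in day 7 blood was -0.08432 with the removed CDR3s kept, -0.03411 over CDR3s, -0.04579 and -0.03942 without near copies of the removed CDR3s or of any larger clone, and -0.03154 for CDR3s that start with C. Tumor minus blood was -0.3562 (exact p = 0.01917) with the removed CDR3s and 0.02465 over CDR3s.

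The length difference was 0.1369 near the middle and 0.4014 in tumors. The difference in clones of 2 or more templates was -8.696 without TCRBV01, -9.373 near the middle, -8.11 for non-V, 1.224 in the first blood library and -0.281 at 5 or more templates. Day 65 members found again differed by -0.9153 without TCRBV01 and -0.9151 for non-V, where none was found. With all in-frame templates as the denominator 23 members were called in place of 40.

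Over 243 fits that left out 1 mouse, 15 reversed, 4 lost and 1 gained the call. For all inner cysteines the tumor difference at 2.5E8 ran from -0.7458 to -0.4434 (exact permutation p = 0.03175 without mouse 1 of that dose), and day 7 blood from -0.1718 to 0.2496 (1E9) and -0.05304 to 0.242 (2.5E8). For non-V, day 7 blood at 1E9 ran from 0.2085 to 0.3146, tumors at 2.5E8 from -0.1675 to 0.05226, cured before EL4 minus day 73 from -0.003909 to 0.02743, after minus before EL4 from -0.02551 to 0.0111, naive mice from -0.017 to 0.07065, and cured minus naive from -0.01178 to 0.02843 on day 65 and -0.0186 to 0.05785 on day 73. Members found again ran from -0.149 to 0.03871.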
